A study of Laccaria bicolor with 37 samples.

Results

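The 38 gene models described here were Laccaria bicolor transcripts whose level rose with the age of the culture in mycelium grown alone and in mycelium grown with poplar, and they were taken from 23130 gene models in all. They were chosen by measured values, namely group means of raw reads scaled to the library total (CPM, per 1000000 counts) with 0.5 CPM added. The mean at 21 days had to be at least 4 times the mean at 3 days in each of the 3 mycelia, the means of the 2 mycelia with a plant had to lie between 0.5 and 2 times that of the mycelium without one at 3, 14 and 21 days, and the free-living mean at 21 days had to reach 10 CPM. The rule also left out 3 gene models by name, and 0 of these met its other conditions.

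All libraries came from the isolate S238N, pre-cultured on sugar-reduced Pachlewski medium P20 and then placed with its cellophane either over the roots of the hybrid poplar Populus tremula x alba 717-1B4 or on like plates that held no plant. Free-living mycelium (FLM) was the culture without a plant, ectomycorrhizal material (EcM) was everything fungal close to a root, root tissue included, and the extramatrical mycelium (ExM) of the same kind of co-culture was taken farther from the roots. RNA-seq libraries were available at 3, 7, 14 and 21 days post-inoculation (dpi) for each mycelium and at the start (T0) for FLM, giving 37 libraries in 13 groups, with 2 libraries for FLM at T0, 2 for ExM at 14 dpi and 3 in every other group. The study calls these libraries biological replicates without saying whether each had its own plate. Fungus and plant are each 1 genotype. The values give the share of fungal transcripts only, so that fewer hyphae of one kind and less RNA per hypha cannot be told apart.

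As background, an ectomycorrhizal fungus wraps root tips in a mantle of hyphae, trades soil nutrients for plant sugar there, and extends a separate mycelium into the soil. On a plate, a colony also ages: the front keeps growing while hyphae behind it stop extending, draw on stored material, take up and recycle what older hyphae release, and often darken with pigment. Tyrosinases, copper enzymes that turn phenols into quinones, are among the enzymes known to feed melanin pigments in fungi.

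Library totals lay between 13.82 and 36.82 M counts (median 20.68 M), so that 3 counts, taken as the floor of a library, were 0.0815 to 0.217 CPM. The lowest count of any member in any library was 15, and all 38 passed the filter on low counts. Of the symbiosis markers used to check the EcM label, all small secreted proteins that the study itself followed in these libraries, MiSSP17 had 2.02 to 4.51 CPM in EcM at 7 dpi. In FLM of that day it had at most 0.326 CPM. MiSSP12 had 22.1 to 35.7 CPM in EcM and 6.16 to 8.72 CPM in FLM, and MiSSP8 had 0.882 to 1.11 and 0.347 to 0.597 CPM. MiSSP7.6 overlapped, with 2.04 to 20.9 CPM in EcM and 1.6 to 3.87 CPM in FLM. Some libraries stood apart from their group for these genes. FLM replicate 2 of 3 dpi was the highest of its 3 libraries for 32 of the 38 members, and replicate 3 of that group the lowest for 29. FLM replicate 2 of 7 dpi was the lowest for 28, FLM replicate 3 of 14 dpi the highest for 33, FLM replicate 2 of 21 dpi the lowest for 25 and ExM replicate 1 of 21 dpi the lowest for 30. Without FLM replicate 2 of 3 dpi the rule found 43 gene models, 36 of them among the 38, and without replicate 3 it found 32, all among them. Without the libraries named for FLM at 14 dpi, FLM at 21 dpi and ExM at 21 dpi it found 36, 37 and 37. Their part in the results was not tested further.

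The members differed in how far they rose and in their level. As fixed by the rule, the ratio of 21 to 3 dpi ran from 4.04 to 29.6 in FLM (median 6.55), from 4.05 to 57.2 in ExM (median 5.97) and from 4.04 to 20.2 in EcM (median 6.89). Their FLM means at 21 dpi ran from 14.9 to 13150 CPM with a median of 236 CPM. The gene model closest inside the FLM rise was 295069 with a ratio of 4.04 and the closest outside was 299797 with 3.86. For the ExM rise these were 569482 with 4.05 and 670197 with 3.47, and for the EcM rise 684490 with 4.04 and 701410 with 3.99. The upper limit on EcM at 14 dpi was the condition that most gene models failed while meeting all others, with 16. Gene model 295069 lay inside it with an EcM to FLM ratio of 1.93 and 447385 outside it with 2.16. In all, 188 gene models rose at least 4-fold in FLM, and 99 met every condition on the rise and the level before the ratios to FLM were applied, so that 61 were dropped by those ratios.

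**Figure D1:**
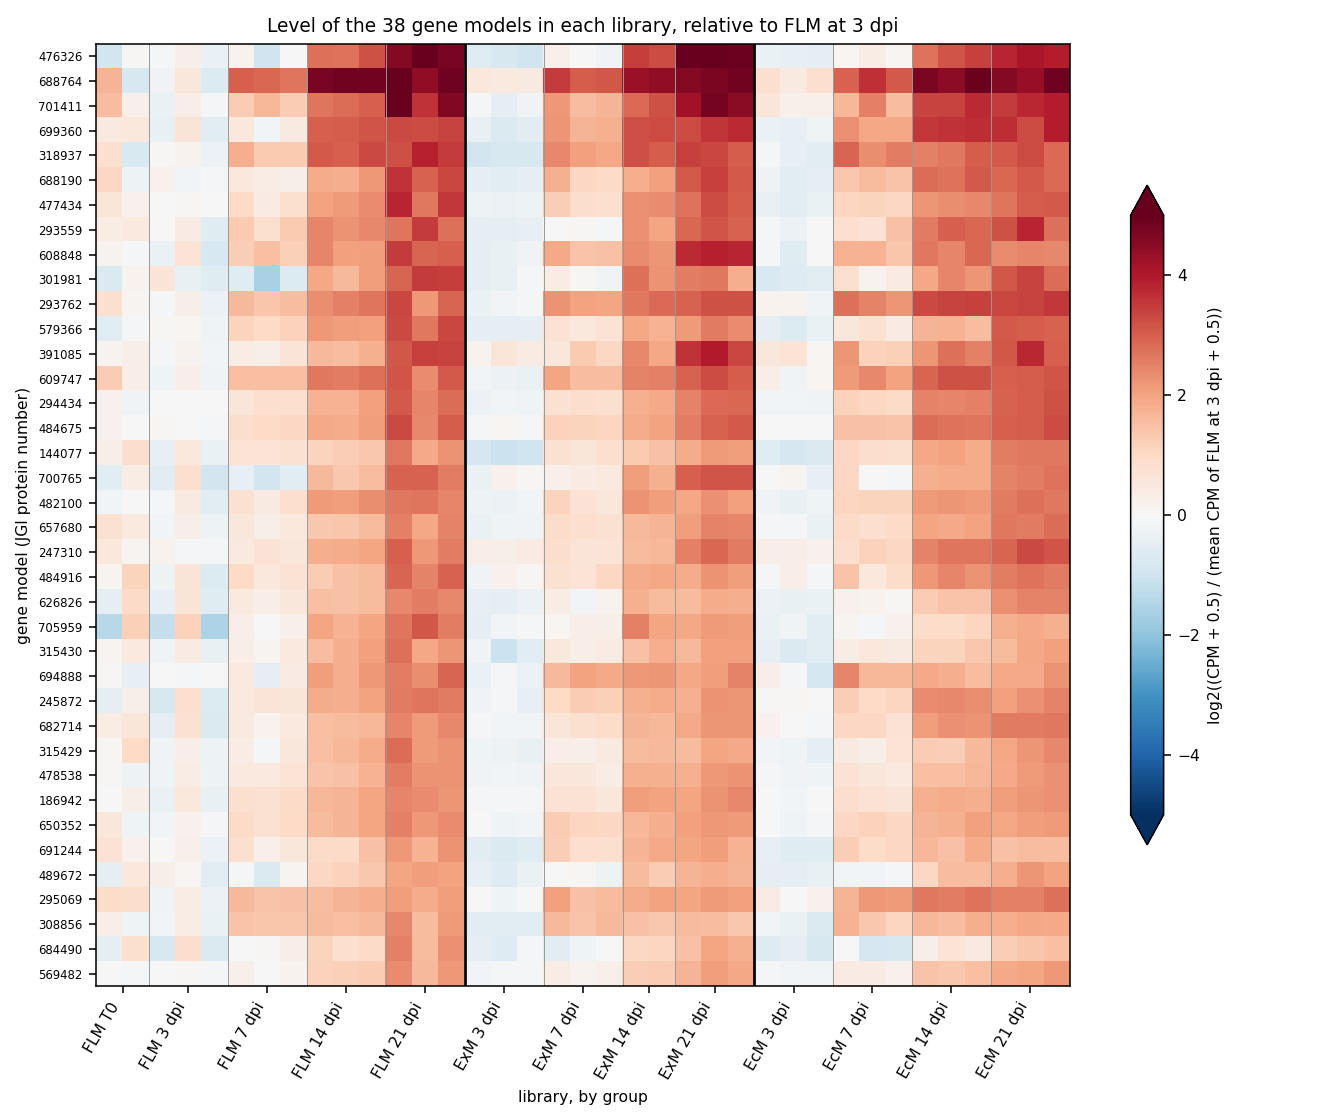
Heat map of the 38 gene models (lines, ordered by their mean rise) in the 37 libraries (columns, by group), as log2 of CPM + 0.5 relative to the FLM mean at 3 dpi, with colours ending at 5. The colours deepen from 3 to 21 dpi in each of the 3 mycelia, which the rule fixed, while the 7 dpi columns differ from gene to gene.

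Together the members took a growing share of a library's counts. Their summed share averaged 0.548% ± 0.134 (SD, n = 3) in FLM at 3 dpi and 1.30% ± 0.0889 at 7 dpi, then 1.97% ± 0.184 (14 dpi) and 3.05% ± 0.459 (21 dpi). The corresponding means were 0.508, 1.53, 2.23 and 2.92% in ExM, and 0.589, 1.82, 3.15 and 3.46% in EcM. One gene model, 295069, supplied most of this sum at the early days: without it the FLM mean went from 0.223% at 3 dpi to 1.73% at 21 dpi. The higher sum of EcM at 14 dpi was also largely that gene model, since without it the means there were 1.11% in EcM, 0.98% in ExM and 0.917% in FLM.

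**Figure D2:**
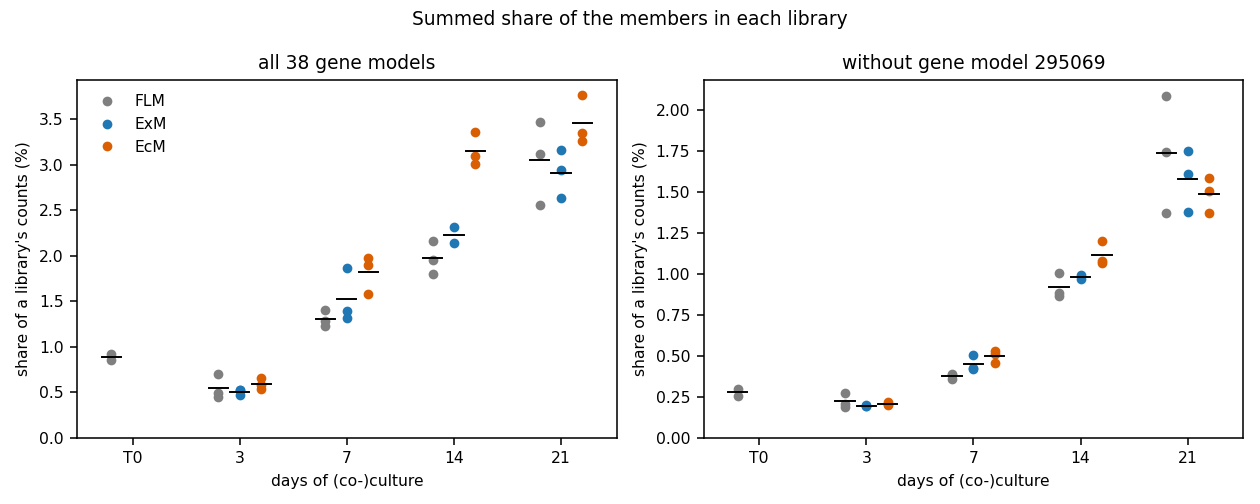
Summed share of a library's counts (%) taken by the 38 gene models (left) and by 37 of them without 295069 (right), with 1 point per library, black bars for group means and evenly spaced days. The mean of FLM goes from 0.548% at 3 dpi to 3.05% at 21 dpi on the left and from 0.223% to 1.73% on the right.

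Oxidising enzymes formed the first group by annotation. Gene model 295069, a tyrosinase with the domains of a fungal monophenol monooxygenase, was the most abundant member per length as well, with a mean of 6895 RPKM (the authors' read number divided by transcript length and mapped reads) in FLM at 21 dpi, rank 12 of all gene models. Its FLM libraries held 6233 and 6006 CPM at T0, 2880, 4246 and 2637 CPM at 3 dpi, and 10116, 8678 and 8974 CPM at 7 dpi. They reached 9372, 10681 and 11609 CPM at 14 dpi, then 13838, 11853 and 13757 CPM at 21 dpi. The FLM libraries of 3 dpi thus lay below those of T0, and those of 7 and 14 dpi overlapped. In EcM it stood at 4313, 3327 and 3768 CPM at 3 dpi and at 10711, 14440 and 14407 CPM at 7 dpi. By 14 dpi EcM held 20257, 19314 and 21614 CPM, and 18914, 18431 and 21796 CPM on the last day. ExM ended at 12625, 14125 and 13363 CPM, close to FLM, so that the 3 EcM libraries of 21 dpi lay above every FLM and ExM library of that day while their mean stayed within the 2-fold limit of the rule.

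Gene model 318937, an FAD-linked oxidase of the kind that uses a bound flavin to oxidise small molecules, had 69.1, 74.7 and 54.5 CPM in FLM at 3 dpi and 237, 162 and 166 CPM at 7 dpi. Later it had 552, 529 and 664 CPM (14 dpi) and 616, 958 and 749 CPM (21 dpi). In EcM it reached 500, 330 and 393 CPM by 7 dpi and 380, 417 and 537 CPM at 14 dpi. Its EcM libraries of 7 and 14 dpi thus overlapped, while those of FLM did not. Gene model 391085, a cytochrome P450 (a haem monooxygenase), went from 16.2, 19.4 and 15.5 CPM in FLM at 3 dpi through 22.3, 20.8 and 26.8 CPM at 7 dpi and 53.1, 50.4 and 59.3 CPM at 14 dpi to 151, 187 and 182 CPM at 21 dpi.

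Transporters, a hydrolase and a protease formed the second group. Gene model 301981, a proton-coupled oligopeptide transporter that takes up short peptides, had 99.1, 48.6 and 40.7 CPM in FLM at 3 dpi and 41.3, 19.9 and 38.8 CPM at 7 dpi. It then stood at 242, 196 and 271 CPM at 14 dpi and at 469, 721 and 693 CPM at 21 dpi, so that nearly its whole FLM rise came after 7 dpi. A nucleoside:sodium symporter, 650352, went from 39.9, 50.1 and 40.2 CPM to 254, 198 and 225 CPM between 3 and 21 dpi in FLM. The nucleobase transporter 245872 went from 8.41, 27.1 and 8.92 CPM to 91.9, 98.0 and 91.5 CPM, and its high value at 3 dpi was in FLM replicate 2. Per length at 21 dpi in FLM, the peptide transporter was at 346 RPKM, the nucleoside symporter at 117 RPKM and the nucleobase transporter at 63.3 RPKM.

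The alpha-amylase 247310, an enzyme that cleaves starch and glycogen, stood at 68.2, 56.0 and 58.1 CPM in FLM at 3 dpi and 490, 276 and 358 CPM at 21 dpi, and at 458, 598 and 536 CPM in EcM at 21 dpi. The aspartic protease 144077, listed by RefSeq as LbPR_A11 and annotated with pepsin and cathepsin D activity, had 50.5, 97.1 and 52.7 CPM at 3 dpi and 414, 252 and 316 CPM at 21 dpi in FLM. Its annotation is mixed and also holds terms for an aminoacyl-tRNA ligase. In ExM and EcM its 3 dpi libraries were lower, between 31.1 and 43.8 CPM, and this gave it the lowest ExM to FLM ratio of all members at 3 dpi (0.509). Its EcM and ExM libraries did not overlap with FLM on that day.

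Regulators and RNA-binding proteins were the third group. A two-component histidine kinase with a response regulator domain, 478538, of a class that senses osmotic, redox or chemical signals in fungi, moved evenly in the 3 mycelia, from 119 to 184 CPM over the 9 libraries of 3 dpi to 484 to 847 CPM over the 9 libraries of 21 dpi. The Zn2Cys6 transcription factor 579366, of the zinc cluster class found in fungi, went from 9.11, 9.31 and 7.46 CPM to 88.6, 55.6 and 92.5 CPM in FLM. Gene model 609747 carries an NmrA-like domain, known from a repressor of nitrogen catabolic genes in Aspergillus and Neurospora, and went from 17.5, 25.8 and 17.9 CPM to 186, 107 and 176 CPM. The range of the transcription factor at 21 dpi did not meet that at 3 dpi in any mycelium, and the same held for each of the 38 members, as the rule nearly requires.

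An Argonaute, 315429 (AGO16204 in RefSeq), the protein that holds small RNAs in gene silencing, had 44.7, 64.1 and 42 CPM in FLM at 3 dpi and 356, 219 and 239 CPM at 21 dpi. A short gene model beside it in the RefSeq table, 315430, moved in step, from 8.18, 12.3 and 7.02 CPM to 65.6, 36.3 and 43.9 CPM. Whether these are separate genes or parts of 1 transcript cannot be told from the counts, so they may not be independent members. Gene model 684490, which has the short proteolipid domain of plasma membrane potential modulators, was among the least abundant, with 1.84, 7.00 and 1.97 CPM in FLM at 3 dpi and 23.3, 11.9 and 19.4 CPM at 21 dpi. The small secreted protein 691244, one of the short proteins with a signal for export, went from 34.3, 41.6 and 28.3 CPM to 160, 118 and 165 CPM.

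The member with the largest mean rise over the 3 mycelia was 476326, a small protein with the cupin fold of RmlC type, a barrel shared by enzymes and storage proteins of many functions. In FLM it had 9.28, 12.4 and 7.70 CPM at 3 dpi and 10.99, 4.71 and 9.99 CPM at 7 dpi. It then had 69.5, 67.9 and 91.9 CPM at 14 dpi and 245, 394 and 274 CPM at 21 dpi. ExM ran from 6.19, 5.49 and 4.61 CPM to 323, 384 and 309 CPM and EcM from 7.62, 7.26 and 7.03 CPM to 143, 175 and 155 CPM. No rise was seen by 7 dpi in FLM, and at 21 dpi the EcM libraries were the lowest of that day.

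Of the other members, 22 had no informative annotation in the tables used here. Over all gene models, 19488 of 23130 had none, as had 12070 of the 15533 tested. Gene models without annotation were thus a smaller share of the 38 members than of all gene models. The next largest rises were among these 22 members. Gene model 688764 went from 37.4, 62.5 and 25.9 CPM to 1571, 923 and 1222 CPM in FLM, with 1129, 1192 and 1198 CPM already at 14 dpi. Gene model 701411 went from 136, 217 and 159 CPM to 6016, 2096 and 4215 CPM and was second in level per length (4163 RPKM). Its FLM libraries of 21 dpi differed almost 3-fold among themselves, and its EcM libraries of that day, at 1913, 2346 and 2593 CPM, overlapped only the lowest of them. The transcripts of the members were 355 to 10021 bases long with a median of 1126, against a median of 1182 over 13586 gene models.

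Further unannotated members were among the most abundant or the steepest. Gene model 569482 stood at 472, 480 and 427 CPM in FLM at 3 dpi and 2372, 1400 and 2093 CPM at 21 dpi, and 657680 at 207, 281 and 190 CPM and then 1288, 864 and 1257 CPM. The long transcript 186942 went from 246, 436 and 235 CPM to 1676, 1557 and 1410 CPM. The range of each at 21 dpi lay wholly above that at 3 dpi, with FLM replicate 2 of 21 dpi the lowest for 569482 and 657680. Gene model 477434 went from 33.7, 36.3 and 33.7 CPM to 487, 215 and 411 CPM, and 688190 from 28.01, 21.7 and 22.6 CPM to 298, 192 and 252 CPM.

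**Figure D3:**
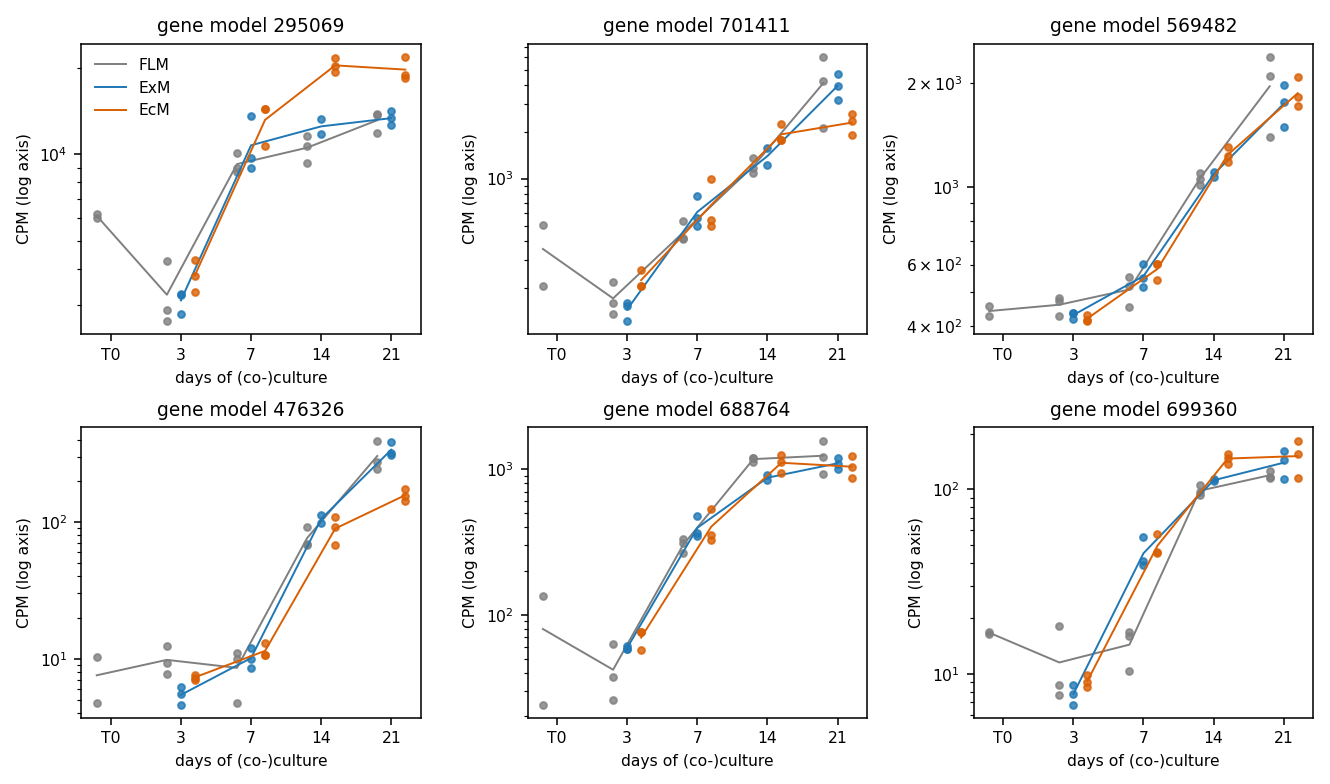
CPM (log axis) of the 3 members with the highest FLM level at 21 dpi (295069, 701411, 569482) and of 3 with the largest mean rise beside them (476326, 688764, 699360), with 1 point per library, lines through group means and evenly spaced days. The cupin 476326 stays between 4.61 and 12.96 CPM from 3 up to 7 dpi in all 3 mycelia, whereas 688764 has 267 to 530 CPM by then, and 699360 has 10.3 to 16.8 CPM in FLM at 7 dpi against 38.8 to 57.6 CPM in ExM and EcM.

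The course between 3 and 21 dpi was not the same in the 3 mycelia. As a description of group means, the largest of the 3 steps lay between 7 and 14 dpi for 23 of the 38 members in FLM, for 19 in ExM and for 17 in EcM. It lay between 3 and 7 dpi for 8 members in FLM but for 17 in ExM and 20 in EcM, and between 14 and 21 dpi for 7, 2 and 1. The median step from 3 to 7 dpi was 0.596 on the log2 scale in FLM, 1.07 in ExM and 1.15 in EcM, and that from 14 to 21 dpi was 0.864, 0.371 and 0.499. By these means more members made their largest step early in the cultures with a plant, and the last step was larger without one. In FLM 34 members rose at every step, in ExM 33 and in EcM 31. These steps use the libraries that chose the members and carry no test.

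Whether the rise also appeared between days that the age condition did not use was tested at 14 against 7 dpi, within each mycelium. In FLM 24 of the 38 members were called higher at 14 dpi and 0 lower, in ExM 19 and 0, and in EcM 25 and 0 (edgeR's quasi-likelihood test, Benjamini-Hochberg adjusted p under 0.05 and a log2 fold change of at least 1). Over all 15533 gene models tested, 1.67% were called higher in FLM, 1.39% in ExM and 2.48% in EcM, and 2.74%, 2.66% and 5.31% were called lower. The median log2 fold change of the members was 1.19 in FLM, 1.04 in ExM and 1.09 in EcM, beside 0.03, 0.01 and 0.00 over all gene models tested. Every 14 dpi library lay above every 7 dpi library for 37 members in FLM, 36 in ExM and 35 in EcM, against 31.1%, 32.7% and 21.8% of all gene models tested. The libraries of 7 dpi played no role in the choice. Those of 14 dpi entered it through their ratio to FLM, and a gene chosen to rise from 3 to 21 dpi passes through this interval, so a high count is partly built in. The FLM count was 22 without replicate 2 of 7 dpi and 21 without replicate 3 of 14 dpi, and the ExM count was 12 without ExM replicate 1 of 14 dpi.

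The cupin 476326 had the largest change in all 3 mycelia, with log2 fold changes of 3.12 ± 0.25 (SE, adjusted p = 3.18e-09) in FLM, 3.31 ± 0.27 (adjusted p = 1.13e-08) in ExM and 2.97 ± 0.25 (adjusted p = 3.02e-09) in EcM. Its 14 dpi libraries lay between 67.8 and 112 CPM and its 7 dpi libraries between 4.71 and 12.96 CPM, with no overlap. The peptide transporter 301981, second in FLM and ExM and behind 293559 (1.84) in EcM, had 2.80 ± 0.34 in FLM (adjusted p = 1.22e-06), 2.37 ± 0.36 in ExM (adjusted p = 4.69e-05) and 1.73 ± 0.33 in EcM (adjusted p = 0.000233). In all, 10 members were called higher in all 3 mycelia, 15 in 2, 8 in 1 and 5 in none, against 0.283%, 0.624%, 3.44% and 95.7% of all gene models tested. Besides those named, the 10 were 699360, 700765, 482100, 477434, 701411, 489672, 293559 and 626826.

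The 5 members called in none were the tyrosinase 295069, the nucleoside symporter 650352, the small secreted protein 691244, and 293762 and 308856. For the tyrosinase the log2 fold change was 0.16 ± 0.14 in FLM (adjusted p = 0.418), 0.14 ± 0.16 in ExM (adjusted p = 0.566) and 0.63 ± 0.14 in EcM (adjusted p = 0.00088), so that only the change in EcM passed the p threshold and it stayed under the 2-fold limit. Gene model 308856 stood at 54.9, 53.1 and 53.6 CPM in FLM at 7 dpi and 60.1, 57.6 and 63.2 CPM at 14 dpi, a change of 0.14 ± 0.19 on the log2 scale (adjusted p = 0.646). Both had made most of their climb by 7 dpi. The Argonaute 315429 was called in FLM (1.35 ± 0.20, adjusted p = 9.86e-06) and ExM (1.16 ± 0.21, adjusted p = 0.000404), while in EcM its change was 0.90 ± 0.20 (adjusted p = 0.000829), short of 2-fold.

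**Figure D4:**
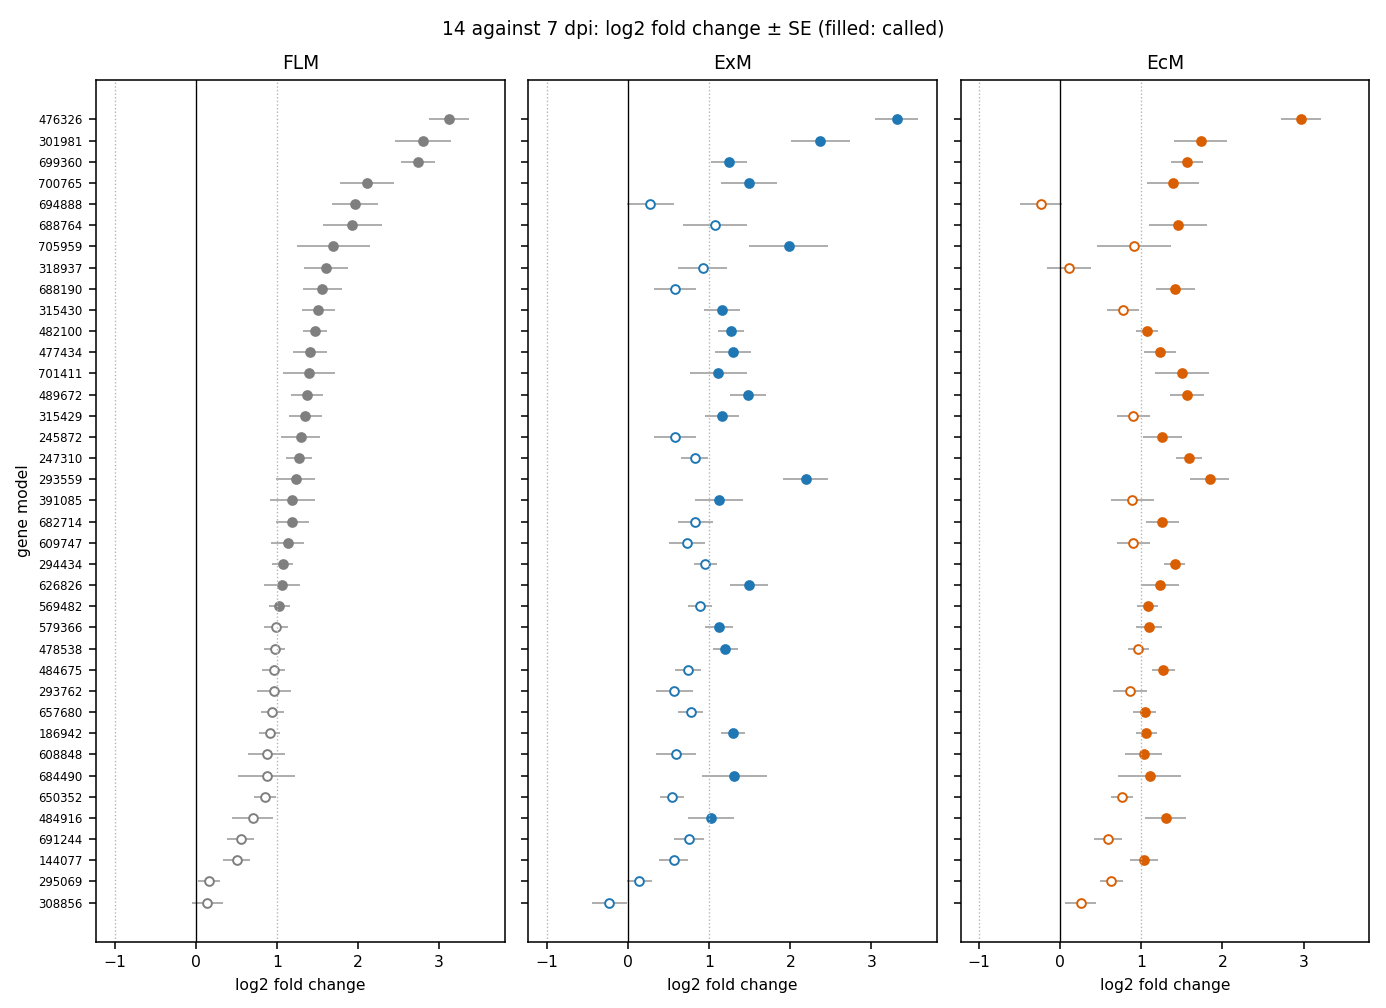
Log2 fold change of 14 against 7 dpi with its SE for the 38 members (lines, ordered by FLM) in FLM, ExM and EcM, with filled points for members called and dotted lines at a log2 fold change of -1 and 1. All 38 points lie above 0 in FLM, and 24, 19 and 25 points are filled from left to right.

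The difference between mycelia with and without a plant could be tested at 7 dpi, the day whose libraries the rule did not use. Members were not equal there: 8 of 38 were called higher in EcM than in FLM and 0 lower, against 3.68% called higher and 0.245% lower over all gene models tested. In ExM 5 were called higher and 1 lower than in FLM, against 1.97% and 0.0515%. The median log2 fold change of the members was 0.53 for EcM against FLM and 0.32 for ExM against FLM, beside 0.00 and 0.01 over all gene models tested. At 3, 14 and 21 dpi the rule only kept each mean with a plant between 0.5 and 2 times that of FLM. Independence of the plant on those days was thus limited by the rule and was not tested. As a description, some members near these limits had libraries that did not overlap with FLM. Examples are 144077 in ExM at 3 dpi (0.509 times FLM), 295069 in EcM at 14 dpi (1.93) and 476326 in EcM at 21 dpi (0.518). They were picked near the extremes of ratios that the rule used, and these differences were not tested. The share of all gene models without overlap on those days is not given here. At 7 dpi 9 members were called against FLM in EcM, ExM or both, and the other 29 in neither. The 2 comparisons share their FLM libraries. For EcM the count was 5 without EcM replicate 1, and for ExM, where both directions gave 6, it was 3 without FLM replicate 2, 2 without FLM replicate 3, 3 without ExM replicate 1 and 3 without ExM replicate 3.

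The clearest difference was in 2 unannotated gene models. Gene model 699360 had 16.8, 10.3 and 16.1 CPM in FLM at 7 dpi, 55.5, 38.8 and 40.9 CPM in ExM and 57.6, 45.9 and 45.2 CPM in EcM. Gene model 694888 had 2.98, 1.34 and 2.77 CPM in FLM, 7.09, 9.48 and 8.81 CPM in ExM and 12.8, 7.28 and 7.43 CPM in EcM. For both, no library with a plant overlapped an FLM library. The log2 fold changes of EcM against FLM were 1.91 ± 0.21 (adjusted p = 8.07e-07) for 699360 and 2.07 ± 0.28 (adjusted p = 1.61e-05) for 694888, and those of ExM against FLM were 1.75 ± 0.21 (adjusted p = 3.01e-05) and 1.93 ± 0.28 (adjusted p = 0.000107). These 2 were called under all 11 alternatives in both comparisons.

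Among the annotated members, the peptide transporter 301981 was at 41.3, 19.9 and 38.8 CPM in FLM, 80.3, 64.9 and 55.7 CPM in ExM and 108, 70.5 and 84.6 CPM in EcM at 7 dpi, higher than FLM by 1.53 ± 0.33 on the log2 scale in EcM (adjusted p = 0.00288) and 1.12 ± 0.33 in ExM (adjusted p = 0.045). The groups did not overlap with FLM, but the ExM call held under only 1 of 11 alternatives and the EcM call was lost in a fit of only these groups. The FAD-linked oxidase 318937 was higher in EcM by 1.25 ± 0.27 (adjusted p = 0.00308) and not called in ExM (0.76 ± 0.27, adjusted p = 0.105). The cytochrome P450 391085 was called in EcM as well (1.32 ± 0.28, adjusted p = 0.00242), where EcM replicate 1 stood at 79.6 CPM and replicates 2 and 3 at 38.6 and 39.8 CPM, against 22.3, 20.8 and 26.8 CPM in FLM. Without that library its log2 fold change was 0.84 and it was not called, nor was it in a fit of only these groups.

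The remaining members higher in EcM were 688190, 700765 and 293762, with log2 fold changes of 1.20, 1.19 and 1.10, and the first 2 of these were called in ExM too, with 1.04 and 1.12. The ExM call of 700765 was lost when any library of FLM or ExM was left out, and without the low-count filter, and that of 688190 without FLM replicate 2 or 3 or ExM replicate 1 and in a fit of only these groups. In EcM, 700765 lost its call without FLM replicate 2 or 3 or EcM replicate 1 and in a fit of only these groups, and 293762 without EcM replicate 1. The single member called lower was 293559 in ExM, with 3.76, 4.01 and 3.68 CPM against 10.2, 6.89 and 10.1 CPM in FLM (log2 fold change -1.13 ± 0.26, adjusted p = 0.00853), a call lost without FLM replicate 3 or ExM replicate 3. In EcM it had 7.21, 6.67 and 11.2 CPM, and it was the only member called between EcM and ExM at 7 dpi (1.15 ± 0.26, adjusted p = 0.0229), where 0.29% of all gene models tested were called higher and 0.0129% lower. That call was lost without any 1 of the 3 ExM libraries, without EcM replicate 3 and in a fit of only these groups.

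The Argonaute, the histidine kinase, the amylase and the protease were not called between mycelia at 7 dpi. For EcM against FLM the log2 fold changes were 0.29 ± 0.20 (315429, adjusted p = 0.366) and 0.17 ± 0.13 (478538, adjusted p = 0.433). The protease 144077 had 0.32 ± 0.17 (adjusted p = 0.214). The amylase 247310, with 0.55 ± 0.16 (adjusted p = 0.0168), passed the p threshold but stayed under the 2-fold limit. The transcription factor 579366 had -0.41 ± 0.15 (adjusted p = 0.0776). Of the 38 members, 35 had a positive log2 fold change in EcM against FLM and 33 in ExM against FLM. In plain CPM, every EcM library lay above every FLM library for 21 members and below for 3, against 10.4% and 28.7% of all gene models tested. For ExM against FLM these counts were 16 and 3 (8.72% and 27.8%), and for EcM against ExM 5 and 0 (5.19% and 8.78%). CPM lacks the TMM scaling of the fit, and on it the median of all gene models tested was -0.11 on the log2 scale for EcM against FLM and -0.10 for ExM against FLM, with medians of 0.39 and 0.21 for the members.

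**Figure D5:**
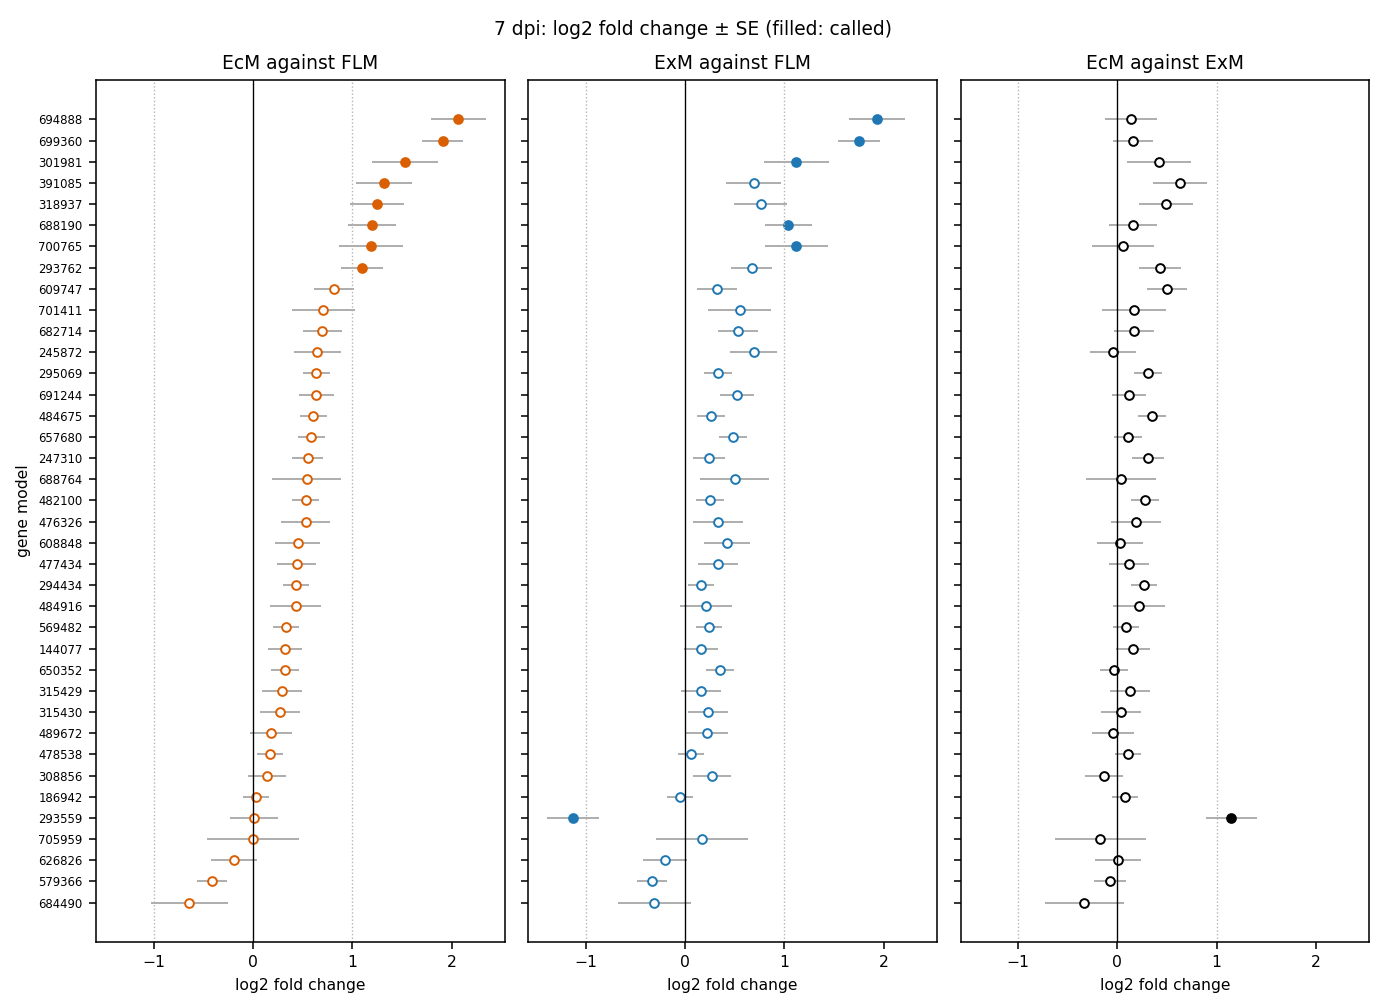
Log2 fold change at 7 dpi with its SE for the 38 members (lines, ordered by EcM against FLM) in 3 panels (EcM and then ExM, each relative to FLM, and EcM relative to ExM), with filled points for members called. From left to right 8, 6 and 1 points are filled, and 293559 is the filled point below 0 for ExM against FLM and above 0 for EcM against ExM.

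The state of the mycelium before the plates were set up was examined with FLM at 7 dpi against T0, neither of which the rule used. Of the 38 members, 5 (13.2%) were called higher at 7 dpi and 0 lower, against 0.27% and 0.567% over all gene models tested. By adjusted p under 0.05 alone, 13 members were higher and 0 lower. The median log2 fold change of the members was 0.24, beside -0.01 over all gene models tested. The highest was the unannotated 688764 with 1.84 ± 0.42 (adjusted p = 0.00816), but its T0 libraries were 135 and 24.1 CPM. The Zn2Cys6 transcription factor 579366 had 5.73 and 8.17 CPM at T0 and 19.4, 17.9 and 20.0 CPM at 7 dpi, with no overlap and a difference of 1.41 ± 0.19 on the log2 scale (adjusted p = 3.19e-05). The other called members were 318937, 608848 and 308856, with 1.22, 1.25 and 1.30. Every 7 dpi library lay above both T0 libraries for 16 of the 38 members, against 17.9% of all gene models tested. Without T0 replicate 1 the count of calls was 8, and a fit of only these 5 libraries called 0, with 13 members at an unadjusted p under 0.05.

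The level at T0 was close to that at 3 dpi for most members. The ratio of the T0 to the 3 dpi mean had a median of 1.23 and ran from 0.782 to 2.07, and it was within 1.5-fold for 30 of the 38. The tyrosinase 295069 was among the 8 above that, with 6120 CPM at T0 and 3254 CPM at 3 dpi. For all 38 the T0 mean lay below the FLM means of 14 and 21 dpi. This comparison holds the 3 dpi libraries that chose the members and is a description.

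To set the annotated members beside other genes of their kind, lists were made by words in the annotation tables, which cover 3642 gene models and are shortened, so that the lists are incomplete. In FLM at 14 against 7 dpi, the transporter list (227 tested) had 8 called higher and 3 lower, with 2 of its 3 members among the 8. The list of dehydrogenases and oxidoreductases (337 tested) had 16 higher and 10 lower, with 2 of 3 members called, and the cytochrome P450 list (26 tested) had 3 higher and 2 lower, with its 1 member called. Glycoside hydrolases and other CAZymes (177 tested) had 4 called higher, the amylase among them, and 16 lower. Peptidases (124 tested) had 3 higher and 5 lower, and small secreted proteins (227 tested) 9 higher and 29 lower, with 0 of 1 member called in each. The medians of these lists lay between -0.08 and 0.15 on the log2 scale, near that of all gene models.

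Transcription factors (184 tested) had 4 called higher and 4 lower in FLM, and protein kinases (144 tested) 0 and 5. The members in these lists, 579366 and 478538, were not called in FLM. Their log2 fold changes there, 0.99 and 0.97, passed the p threshold and lay just under the 2-fold limit. Gene model 579366 was called higher in ExM (1.12) and EcM (1.09), and 478538 in ExM (1.20) but not in EcM (0.96). No member belonged to the lists of hydrophobins (0 higher and 2 lower of 5), heat shock proteins (0 and 0 of 18), enzymes against oxidative stress (2 and 0 of 22), ribosomal proteins (0 and 0 of 98), lectins (2 and 1 of 31) or F-box, NACHT, ankyrin and WD40 proteins (4 and 4 of 120). The gene models without annotation (12070 tested) had 169 higher and 280 lower, and 15 of their 22 members were called higher.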

How the data were processed

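Total RNA was sequenced by the authors as stranded mRNA libraries, and reads were trimmed and aligned to the L. bicolor v2 transcripts with CLC Genomics Workbench, a read being allowed at most 10 matches. The authors deposited, for 23130 gene models, the raw read count and the RPKM of each library. Which hits were counted is not given in the sources used here, so near-identical genes are uncertain, and poplar reads matching a fungal transcript would be counted. Counts were used for tests, RPKM for levels per length. The members, lists and tests were chosen with earlier results of these data known. Counts were fitted with edgeR 4.0.16 in R 4.3.3 after filterByExpr by group (minimum count 10, total 15), which kept 15533 gene models. The fit used TMM and 1 coefficient per group over 37 libraries, with quasi-likelihood F-tests (two-sided) and calls as defined in the text. The SE of a log2 fold change is its size divided by the square root of its F statistic, not a separate estimate.

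Alternatives were median-of-ratios scaling in edgeR, DESeq2 1.42.0 in place of edgeR, no filter, only the groups compared, a replicate block and leaving out each library. Both tools were tested on simulated data. Named members were the 8 highest, the 8 with the largest rise, those annotated, those called against FLM at 7 dpi and those nearest a threshold. Gene models 482100, 489672, 626826 and 308856 lay outside this rule and were named after their calls were seen. Gene models were matched to RefSeq locus tags by number (6580 matched, 13 of them members). Sequences and promoter motifs were not analysed here. Counts of libraries within a group differed by more than sampling noise (smallest chi-square divided by its degrees of freedom 4.59).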

Additional observations from a re-analysis of the deposited data

Results flagged for a closer look

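For 3 members the change from 7 to 14 dpi differed between EcM and FLM by the test of the difference itself (edgeR interaction contrast, adjusted p under 0.05 and at least 1 on the log2 scale, EcM minus FLM), where 1.98% of all 15533 gene models tested were called lower and 1.62% higher. The difference was -2.20 (SE 0.38, adjusted p = 0.00027) for gene model 694888, -1.49 (SE 0.38, adjusted p = 0.0128) for the FAD-linked oxidase 318937 and -1.18 (SE 0.28, adjusted p = 0.0068) for 699360. All 3 were called higher in EcM than in FLM at 7 dpi, and the rule held their EcM to FLM ratio at 14 dpi between 0.5 and 2, so a smaller later change in EcM is tied to the earlier difference. For 694888 the change was 1.96 in FLM and -0.24 in EcM. For ExM minus FLM 0 members and 0 of all gene models tested were called, with 4 members and 8.86% of all gene models at an unadjusted p under 0.05, and the values of 694888 and 699360 were -1.69 and -1.50. Groups of 2 or 3 libraries allowed no test for single outlying libraries.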

How the results depend on the processing

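The number of members was 77 with a rise of at least 3, which held all 38, and 17 with at least 6, and leaving out 1 library gave 32 to 43. With a fit of only the groups compared, the members called were 5 for EcM against FLM, 0 for EcM against ExM and 0 for FLM at 7 dpi against T0, with fewer libraries behind the spread. Leaving out each library gave 21 to 25 members called higher at 14 dpi in FLM, 12 to 18 in ExM and 20 to 28 in EcM, 5 to 8 for EcM against FLM, 2 to 4 for ExM against FLM, 0 to 1 for EcM against ExM and 4 to 8 for FLM against T0. Where this left 1 library in a group (T0, ExM at 14 dpi), it was assumed to vary like the others. The cause of these shifts was not tested. Of 308 refits of named members at 14 against 7 dpi in FLM, 302 kept their side of the threshold, 5 of 569482 lost the call, 1 of 293762 gained it and 0 changed direction. With the replicate block the counts were 24, 18 and 25 at 14 against 7 dpi, 8, 5 and 1 at 7 dpi and 6 against T0. Same-numbered libraries correlated between -0.448 and 0.0804 in their deviations, so the numbers do not pair them. The lowest values were those of EcM against ExM at 7 dpi (-0.448 to -0.142). Whether EcM and ExM libraries with other numbers shared a plate was not tested. A change under 2-fold was not called at any depth.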
